A study of Rattus norvegicus with 9 samples.

Results

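Ribosome biogenesis genes, the genes for RNA polymerase I and for the nucleolar proteins that process rRNA and assemble ribosomal subunits, were followed in cultured rat chondrocytes. A list of 50 such genes was taken by gene name, drawn up with earlier results of these data known, and 49 of them had a row in the deposited table of 18924 genes. Heatr1 did not, and it enters here only through its promoter. The cells were primary chondrocytes of the SD rat strain at passage 1 or 2, and all groups were kept in rat plasma for 24 h. The RP group received rat plasma alone, the RPT group rat plasma with thrombin, and the RPTi group both of these plus an inhibitor with no name in the labels. Each group had 3 libraries. No label ties them to separate animals or cultures, so a p-value here reflects the spread between libraries alone, and that spread may be technical.

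Ribosomes are built in the nucleolus. RNA polymerase I transcribes the rRNA precursor, small nucleolar RNPs guide its chemical modification, and ordered sets of assembly factors cleave it and fold it into the 40S and 60S subunits. The genes for these factors are known as growth genes that respond to ERK signalling and to the transcription factor Myc, which binds the E-box CACGTG. In cartilage, ribosome supply bears on how much matrix protein a chondrocyte can make. The libraries were selected for poly-A RNA, so they report the messenger RNAs of these factors and not rRNA itself.

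Library totals ran from 31877265 to 43962783 counts, and the 49 genes took 128272 to 201701 counts per library. CPM below are counts scaled to library size after TMM, a correction for library composition, listed for replicates 1, 2 and 3 in that order, and means carry the SD over 3 libraries. Each log2 fold change carries a standard error (SE). A gene is said to have risen or fallen where edgeR's quasi-likelihood test gave an adjusted p below 0.05 over all 13856 genes tested. All 49 genes passed the filter on low counts. The chondrocyte label was checked against its markers: Col2a1 averaged 5788 FPKM and Acan 1006 FPKM in RP (FPKM are counts scaled by gene length and library total). Fibroblast markers were high too: in RP the 8 read below summed to 61710 ± 1638 CPM, and the 10 chondrocyte markers to 48246 ± 504 CPM. Bulk RNA cannot tell fewer cells of a type from less RNA per cell.

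Most of these genes were slightly higher with thrombin than without it, and most were lower again with the inhibitor. In RPT against RP, 38 of 49 genes rose and 0 fell, where 13.6% of all tested genes rose and 15.2% fell. With edgeR at an unadjusted p below 0.05, 0 were lower, and DESeq2 and limma voom also called 0 lower. In RPTi against RPT, 30 fell and 1 rose, where 21.1% of all tested genes fell and 20.4% rose. In RPTi against RP, 9 rose, 5 fell and 35 did not pass, where 11.9% of all tested genes rose and 12.3% fell. The 2 contrasts with RPT share its libraries. The test across all 3 groups called 41 of the 49 genes, against 46.7% of all tested genes.

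The changes were small. The median log2 fold change of the 49 genes was 0.30 in RPT against RP, with a range from -0.13 to 0.61, while the median over all tested genes was -0.0007. The 38 genes that rose did so by 1.13-fold to 1.52-fold, with a median of 1.28-fold. In RPTi against RPT the median was -0.28, with a range from -0.93 to 0.21, and over all tested genes it was -0.008. The 30 genes that fell did so by 1.18-fold to 1.54-fold, with a median of 1.35-fold. In RPTi against RP the median of the 49 genes was 0.05. The call rested on small differences: at an adjusted p below 0.01, the rises in RPT numbered 21 and the falls in RPTi against RPT 26.

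**Figure D1:**
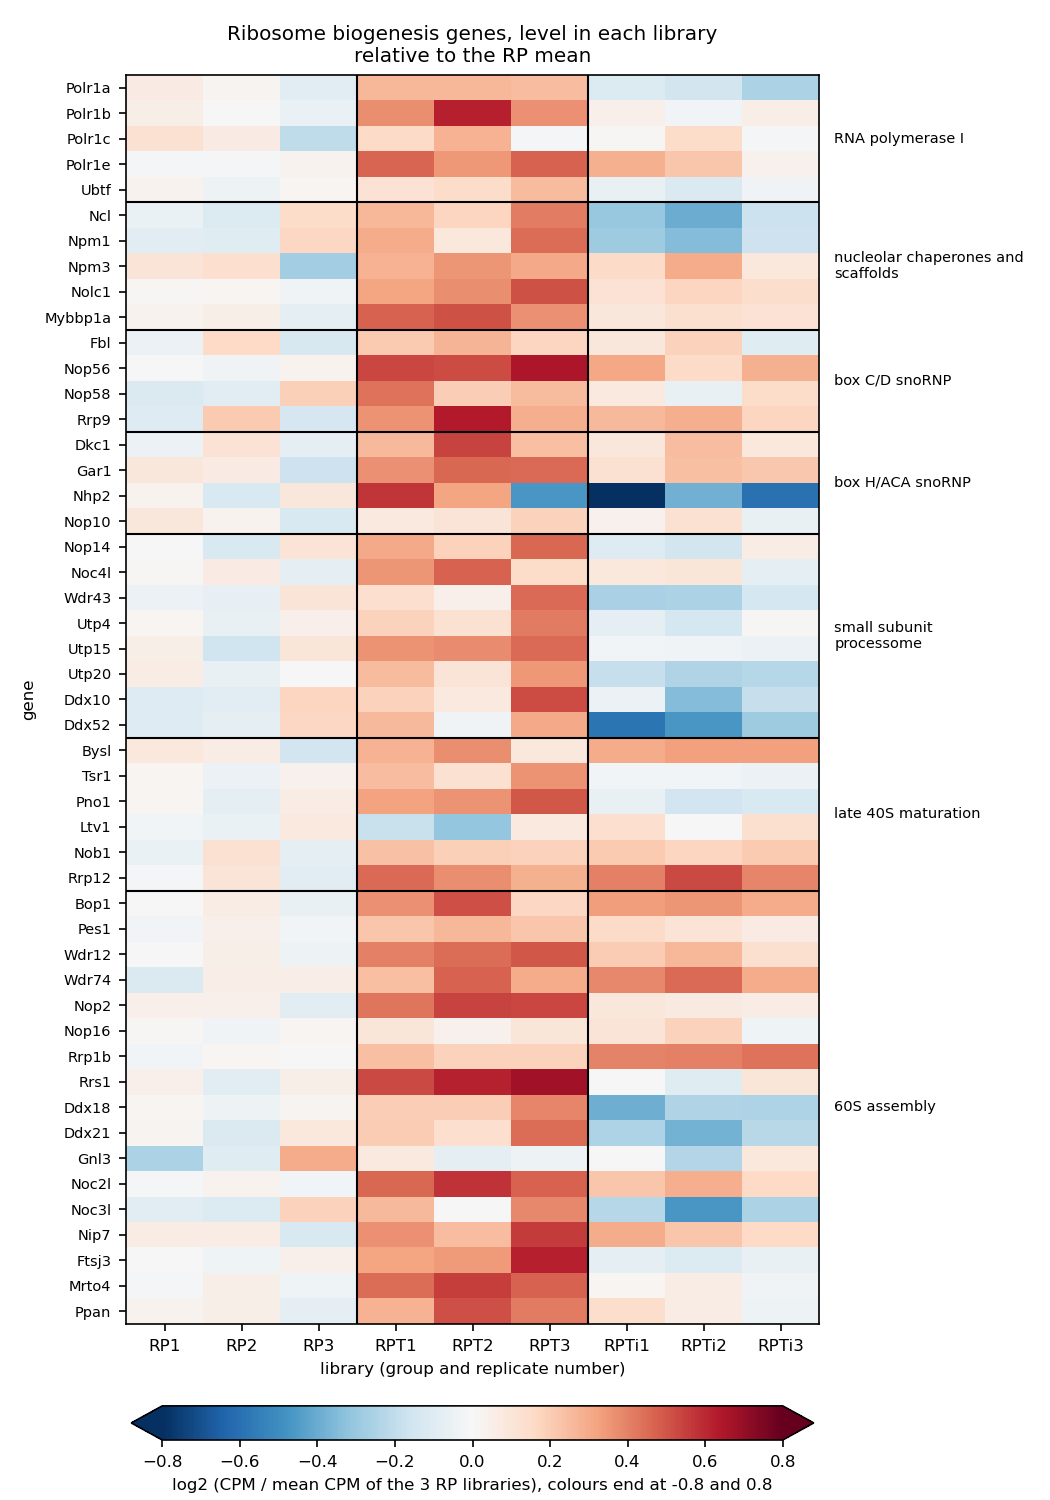
Level of each of the 49 genes (rows, grouped by role) in the 9 libraries (columns), as log2 of CPM over the mean of the 3 RP libraries, with colours ending at -0.8 and 0.8. The RPT columns are red for most genes, and the RPTi columns are mixed, with blue concentrated in rows such as Ncl, Npm1, Ddx52 and Noc3l.

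Summed over the 49 genes, RP held 4318 ± 124 CPM, RPT 5346 ± 232 CPM and RPTi 4217 ± 76.1 CPM (SD, n = 3). The RPT libraries, at 5159 to 5606 CPM, all lay above the RP libraries, at 4233 to 4460 CPM, and the RPTi libraries, at 4143 to 4295 CPM, overlapped with RP. As a share of all counts the genes made up 0.424% to 0.453% of RP libraries, 0.523% to 0.569% of RPT libraries and 0.402% to 0.419% of RPTi libraries. Ncl and Npm1 carried much of the sum. Without them RP held 3010 ± 8.0 CPM, RPT 3752 ± 85.4 CPM and RPTi 3137 ± 8.51 CPM, so the RPTi libraries, at 3131 to 3147 CPM, then lay above those of RP, at 3001 to 3015 CPM. That gap depends on the scaling, since TMM factors were 1.002 to 1.016 in RP and 0.968 to 0.977 in RPTi. With library totals in place of TMM, the median log2 fold change of the 49 genes in RPTi against RP was -0.005, not 0.05.

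Group means were not ordered alike in all genes. In 24 genes the RPTi mean lay between RP and RPT, and in 18 it lay below RP with RPT highest. In 5 genes the order was RP, RPT, RPTi from low to high, namely Bysl, Rrp12, Wdr74, Nop16 and Rrp1b. Ltv1 had its lowest mean in RPT, and Gnl3 its highest in RP. In 39 genes every RPT library was above every RP library, where 20% of all tested genes had such ranges. In 33 genes every RPTi library was below every RPT library, against 26% of all tested genes, and in 1 gene every RPTi library was above, against 24.8%. No gene had every RPT library below every RP library, where 20.5% of all tested genes did. Between RPTi and RP, 16 genes had every RPTi library higher and 11 every RPTi library lower, where the shares over all tested genes were 21.7% and 22.2%. In 6 genes (Polr1a, Ncl, Utp20, Ddx18, Ddx21 and Ftsj3) all RPTi libraries lay below all RP libraries and all RP libraries below all RPT libraries. The share of all tested genes with this order was not computed, so the count cannot be called high or low.

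Levels per transcript length spanned a wide range. The mean RP level ran from 4.16 FPKM for Polr1e to 374 FPKM for Npm1, with a median of 27.4 FPKM, apart from Nhp2 at 0.639 FPKM. Across the 49 genes, which share their libraries and depth, Pearson's r between log2 level in RP and the RPT minus RP change was -0.02, a description with no test.

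The promoters of these genes were read for the Myc E-box, because the genes move together and are named as Myc targets. RefSeq (build GRCr8, not the Rnor_6.0 build of the counts) gave 250 bases before and 50 after the start for 46 of the 50 listed genes. CACGTG, a palindrome and so the same on both strands, occurred in 16 of the 46 promoters (34.8%), against 9.39% of the 9297 promoters of tested genes and 6.42% of all 33469 promoters of the same length. Of 17 E-boxes, 7 began after the start and the farthest upstream began at -184. Among the role groups, 5 of 6 late 40S maturation genes had an E-box and 0 of 5 RNA polymerase I genes did. Windows of 30 bases around the E-box (capitals), 5′ to 3′ on the gene's strand, show these 5 genes and then the genes with the smallest p in their role groups or lower in RPTi than in RP.
Bysl (chr9:20880361-20880390, plus strand): tagccggcttcaCACGTGtaaactttgtgg
Tsr1 (chr10:60258798-60258827, plus strand): gtttactcggtgCACGTGggcagttagaat
Pno1 (chr14:95819885-95819914, minus strand): ggcacaacctcgCACGTGttccagtggttg
Ltv1 (chr1:9398601-9398630, minus strand): gacctgtctaccCACGTGtagagctgccgg
Rrp12 (chr1:250655298-250655327, minus strand): gctgagaatacaCACGTGggttctgctgtg
Mybbp1a (chr10:57555290-57555319, plus strand): gcagtttctacaCACGTGtgcgagcacagg
Utp20 (chr7:25102959-25102988, minus strand): cagcactagctaCACGTGagaaaaagcaga
Ddx18 (chr13:35295968-35295997, minus strand): ctcggaactgcgCACGTGcatctgtcgctc

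Genes with and without the E-box both included many that rose. Of the 16 measured genes with it, 12 rose in RPT against RP with a median log2 fold change of 0.25, and of 29 without it, 24 rose with a median of 0.33. In RPTi against RPT, 8 of the 16 fell with a median of -0.24, and 19 of the 29 fell and 1 rose with a median of -0.28. The difference between these sets was not tested. Nop56, whose rise is among the largest, has no CACGTG in its window, while Mybbp1a has 2 (one begins at -1, the last base of the stretch shown, and runs past its end). The 250 bases before each start are given for comparison, with the E-box in capitals.
Mybbp1a (chr10:57555208-57555457, plus strand): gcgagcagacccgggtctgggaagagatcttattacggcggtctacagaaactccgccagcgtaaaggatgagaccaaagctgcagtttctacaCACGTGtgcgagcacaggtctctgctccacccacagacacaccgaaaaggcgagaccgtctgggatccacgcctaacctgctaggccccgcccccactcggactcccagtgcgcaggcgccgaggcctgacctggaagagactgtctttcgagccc
Nop56 (chr3:137929929-137930178, plus strand): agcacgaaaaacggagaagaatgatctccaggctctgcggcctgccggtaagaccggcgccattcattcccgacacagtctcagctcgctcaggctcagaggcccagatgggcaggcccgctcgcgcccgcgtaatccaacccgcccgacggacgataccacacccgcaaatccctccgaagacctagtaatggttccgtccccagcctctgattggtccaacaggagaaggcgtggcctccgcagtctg

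A second motif, the ETS core CCGGAAG, was searched on both strands after the E-box result was known. It occurred in 18 of the 46 promoters (39.1%), against 17.4% of the promoters of tested genes and 8.75% of all promoters. In other ribosome biogenesis genes, 55.6% of 99 promoters held the ETS core and 29.3% the E-box, and in cytosolic ribosomal protein genes 32.3% of 62 held the ETS core and 8.06% the E-box. Median GC content of the windows was 58.8% for the 46 promoters and 61.3% for promoters of tested genes. A match shows these letters in a window and no binding.

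RNA polymerase I genes rose with thrombin and fell with the inhibitor. Of the 5 genes, 4 rose and 0 fell in RPT against RP (median log2 fold change 0.26), 4 fell in RPTi against RPT (median -0.25), and 0 passed in RPTi against RP (1 at an unadjusted p below 0.05). Without RP replicate 3 the rises in RPT numbered 2. The falls in RPTi against RPT numbered 3, with Polr1e not called, without RP replicate 1, RPT replicate 1 or 3, or RPTi replicate 2 or 3. Polr1a, the catalytic largest subunit, read 53.4, 51.6 and 47.8 CPM in RP, 61.4, 61.3 and 60.4 CPM in RPT, and 47.3, 46.1 and 42.8 CPM in RPTi. The 3 groups of Polr1a values did not overlap. The log2 fold change was 0.26 (SE 0.07, adjusted p = 0.0118) in RPT against RP and -0.43 (SE 0.07, adjusted p = 0.000259) in RPTi against RPT. Without RP replicate 3 the rise in RPT had an adjusted p of 0.0501.

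Ubtf encodes the upstream binding factor that holds rDNA in an active state and has the highest FPKM of the group. It read 175, 167 and 173 CPM in RP, 186, 190 and 205 CPM in RPT, and 164, 158 and 169 CPM in RPTi. RPT was above both other groups in every library, and RP and RPTi overlapped. The rise was 0.17 on the log2 scale (SE 0.06, adjusted p = 0.0377) and the change from RPT to RPTi was -0.24 (SE 0.06, adjusted p = 0.00466). The rise was not called, with an adjusted p of 0.0536 to 0.118, when RP replicate 1, 2 or 3, RPT replicate 3, or RPTi replicate 1 or 3 was left out. Polr1c, a subunit that RNA polymerases I and III share, passed in no contrast (log2 fold change 0.14 in RPT against RP, adjusted p = 0.313).

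The nucleolar chaperones and scaffolds included the most abundant genes. All 5 rose in RPT against RP (median 0.31) and 4 fell in RPTi against RPT (median -0.34). The rises numbered 2 without RPT replicate 3, when Ncl, Npm1 and Npm3 were not called, and 3 without RP replicate 1, RP replicate 2, RPT replicate 1 or RPTi replicate 1. Mybbp1a, a nucleolar Myb-binding protein, read 252, 256 and 234 CPM in RP, 343, 352 and 319 CPM in RPT, and 263, 270 and 268 CPM in RPTi. Its RPT libraries stood clear of the others, and the RPTi libraries lay just above RP. The changes were 0.45 (SE 0.06, adjusted p = 9.25e-05) and, from RPT to RPTi, -0.34 (SE 0.06, adjusted p = 0.000473), while RPTi against RP gave 0.11 (adjusted p = 0.184).

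Ncl (nucleolin, an rRNA-binding protein of the nucleolus) read 687, 662 and 791 CPM in RP, 859, 804 and 948 CPM in RPT, and 577, 542 and 632 CPM in RPTi. The 3 groups did not overlap, with RPTi lowest. Its log2 fold change was 0.29 (SE 0.08, adjusted p = 0.0208) in RPT against RP, -0.58 (SE 0.08, adjusted p = 0.00012) in RPTi against RPT and -0.29 (SE 0.08, adjusted p = 0.0237) in RPTi against RP. Its call in RPT against RP was lost without RP replicate 1, RP replicate 2 or RPT replicate 3 (adjusted p 0.0653 to 0.087), and its call in RPTi against RP without RP replicate 3, RPTi replicate 1 or RPTi replicate 2 (adjusted p 0.08 to 0.098).

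Npm1 encodes nucleophosmin, a histone and ribosomal protein chaperone. It read 561, 556 and 669 CPM in RP, 731, 632 and 810 CPM in RPT, and 488, 467 and 531 CPM in RPTi. RP and RPT overlapped, since RP replicate 3 exceeded RPT replicate 2, and every RPTi library was below both. The changes were 0.28 (SE 0.09, adjusted p = 0.0397) in RPT against RP and -0.55 (SE 0.09, adjusted p = 0.000504) in RPTi against RPT. The rise in RPT was lost without RP replicate 1, RP replicate 2, RPT replicate 1, RPT replicate 3 or RPTi replicate 1 (adjusted p 0.0632 to 0.138). In RPTi against RP, Npm1 did not pass in the main fit, and 8 of 19 alternative settings called it lower.

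The box C/D snoRNP, which methylates rRNA, showed its clearest change in Nop56, a core protein of the particle. Of 4 genes, 3 rose in RPT against RP (median 0.37) and 1 fell in RPTi against RPT (25% beside 21.1% of all genes, median -0.22), or 2 without RP replicate 3 or RPT replicate 2. Nop56 read 96.2, 94.4 and 97.9 CPM in RP, 139, 138 and 151 CPM in RPT, and 119, 107 and 117 CPM in RPTi. The RPTi libraries lay between the other groups without overlap. The changes were 0.57 (SE 0.06, 1.48-fold, adjusted p = 2.27e-05), -0.32 (SE 0.06, adjusted p = 0.00128) and, for RPTi against RP, 0.25 (SE 0.06, adjusted p = 0.0108). Without RPTi replicate 1 the last had an adjusted p of 0.0612.

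Fbl encodes fibrillarin, the methyltransferase of that particle, and passed in no contrast. It read 65.9, 76.0 and 62.2 CPM in RP, 78.8, 82.1 and 76.6 CPM in RPT, and 72.3, 77.4 and 63.7 CPM in RPTi. All RPT libraries were above RP, by a small margin. The RPT against RP change was 0.22 (SE 0.09, adjusted p = 0.0808). Of 19 alternative settings, 2 called Fbl higher in RPT than in RP and 3 called it lower in RPTi than in RPT.

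The box H/ACA snoRNP, which converts uridine to pseudouridine, gave few calls. Of 4 genes, 2 rose in RPT against RP (Dkc1, the pseudouridine synthase, and Gar1) and 1 fell in RPTi against RPT, a share of 25% near the 21.1% of all tested genes. That count of falls was 0 without RPT replicate 2, RPTi replicate 1 or RPTi replicate 3, and 2 without RPT replicate 3. Gar1, a core protein, read 37.1, 36.5 and 31.2 CPM in RP, 44.9, 48.0 and 47.8 CPM in RPT, and 38.0, 41.2 and 40.5 CPM in RPTi. The 3 groups did not overlap. The changes were 0.43 (SE 0.08, adjusted p = 0.0014) and, from RPT to RPTi, -0.23 (SE 0.08, adjusted p = 0.0295), the latter lost without RPT replicate 2 or 3 or RPTi replicate 1 or 3 (adjusted p 0.057 to 0.107).

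Nop10, the most abundant gene of this particle per length, and Nhp2 passed in no contrast. Nop10 read 81.0, 77.7 and 69.9 CPM in RP, 80.3, 81.9 and 86.7 CPM in RPT, and 78.02, 82.8 and 73.2 CPM in RPTi, with all groups overlapping. The Nhp2 row, which lies far below the other 48 and may not hold all reads of the gene, had a mean of 0.422 ± 0.0316 CPM in RP, 0.486 ± 0.165 CPM in RPT and 0.256 ± 0.0805 CPM in RPTi. At this depth its change from RPT to RPTi, -0.93 (SE 0.40, adjusted p = 0.0824), was not distinguishable from its spread in the main fit. Of 19 alternative settings, 2 called Nhp2 lower in RPTi than in RPT.

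The small subunit processome, the large particle that folds and cleaves the 18S part of the precursor, fell with the inhibitor in every measured gene. Of 8 genes, 5 rose in RPT against RP (median 0.26), 8 fell in RPTi against RPT (median -0.43), and 2, Utp20 and Ddx52, fell in RPTi against RP (median -0.13). The rises in RPT numbered 2 without RP replicate 2, RP replicate 3 or RPT replicate 1, and 3 without RP replicate 1 or RPT replicate 3, with Utp20, Utp4, Nop14 and Noc4l among the calls lost. The falls in RPTi against RPT numbered 7 without RPT replicate 1, RPT replicate 2 or RPTi replicate 3, when Noc4l was not called. The falls in RPTi against RP numbered 0 without RPTi replicate 1, and 1 without RP replicate 1, RP replicate 3, RPT replicate 1, RPTi replicate 2 or RPTi replicate 3. Of the late 40S maturation genes, which finish the same subunit, 2 of 6 fell in RPTi against RPT (33.3% beside 21.1% of all tested genes, median 0.03). The difference between these groups of genes was not tested.

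Utp20, a large scaffold protein of the processome, read 80.0, 73.6 and 76.6 CPM in RP, 91.3, 82.3 and 97.7 CPM in RPT, and 67.6, 64.9 and 65.5 CPM in RPTi. No groups overlapped. The changes were 0.24 (SE 0.07, adjusted p = 0.024), -0.46 (SE 0.07, adjusted p = 0.000224) and -0.22 (SE 0.07, adjusted p = 0.0413) in RPT against RP, RPTi against RPT and RPTi against RP. The first was lost without RP replicate 2 or 3 or RPT replicate 1 or 3 (adjusted p 0.0544 to 0.0836). The last was lost without RP replicate 1 or 3, RPT replicate 1, or RPTi replicate 1, 2 or 3 (adjusted p 0.0624 to 0.154).

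Utp4, a subunit of the part of the processome that first meets the precursor, has the highest FPKM of the group. It read 60.9, 57.7 and 61.8 CPM in RP, 68.2, 65.4 and 80.2 CPM in RPT, and 56.9, 54.6 and 60.4 CPM in RPTi. RPT was above both other groups, which overlapped. Its rise of 0.25 (SE 0.08, adjusted p = 0.0379) was lost without RP replicate 1, 2 or 3, RPT replicate 1 or 3, or RPTi replicate 1 (adjusted p 0.0511 to 0.115), and the change from RPT to RPTi was -0.31 (SE 0.08, adjusted p = 0.00755).

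Ddx52, an RNA helicase, read 25.3, 25.8 and 30.5 CPM in RP, 32.5, 26.7 and 33.5 CPM in RPT, and 18.2, 19.7 and 22.3 CPM in RPTi. RP and RPT overlapped, and RPTi was below both. The change was 0.19 (adjusted p = 0.231) in RPT against RP, -0.62 (SE 0.11, 1.54-fold, adjusted p = 0.0006) in RPTi against RPT and -0.44 (SE 0.11, adjusted p = 0.0117) in RPTi against RP. Without RPTi replicate 1 the last had an adjusted p of 0.0628.

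Late 40S maturation genes rose with thrombin, and some were also higher in RPTi than in RP. Of 6 genes, 5 rose in RPT against RP (median 0.25) and 2 fell in RPTi against RPT (33.3% beside 21.1% of all tested genes). In RPTi against RP, 3 (Bysl, Nob1 and Rrp12) were higher (median 0.14). The rises in RPT numbered 3 when any 1 library other than RPT replicate 3 or RPTi replicate 2 was left out, and the genes higher in RPTi than in RP numbered 1 without RP replicate 3, when Bysl and Nob1 were not called. Pno1, an RNA-binding factor of the pre-40S particle, had the smallest p of the group. It read 51.3, 48.1 and 52.8 CPM in RP, 63.5, 65.2 and 71.7 CPM in RPT, and 48.8, 45.6 and 46.7 CPM in RPTi. RPT was above both other groups, which overlapped, with changes of 0.40 (SE 0.07, adjusted p = 0.00102) and -0.51 (SE 0.07, adjusted p = 8.29e-05).

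Nob1, the endonuclease that makes the 3′ end of 18S rRNA, has the highest FPKM of these genes. It read 59.3, 67.0 and 58.2 CPM in RP, 72.5, 70.2 and 70.0 CPM in RPT, and 71.1, 69.4 and 71.2 CPM in RPTi. RPT and RPTi overlapped and both lay above RP. The change was 0.21 (SE 0.07, adjusted p = 0.0355) in RPT against RP, -0.01 (adjusted p = 0.946) in RPTi against RPT and 0.20 (SE 0.07, adjusted p = 0.0466) in RPTi against RP. The first call was lost without RP replicate 1 or 3, RPT replicate 1 or 2, or RPTi replicate 1 or 3 (adjusted p 0.0544 to 0.138), and the last without RP replicate 1 or 3, RPT replicate 1, or RPTi replicate 1, 2 or 3 (adjusted p 0.0669 to 0.166).

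Rrp12, an export and maturation factor, was chosen after its values were seen, because its RPTi libraries were high. It read 52.0, 56.4 and 49.4 CPM in RP, 72.1, 68.0 and 64.1 CPM in RPT, and 69.6, 75.9 and 68.8 CPM in RPTi. RPT and RPTi overlapped, and both were above RP. The changes were 0.37 (SE 0.07, adjusted p = 0.00238), 0.07 (adjusted p = 0.478) and, for RPTi against RP, 0.44 (SE 0.07, adjusted p = 0.000896). Ltv1, another pre-40S factor, passed in no contrast, with a change of -0.13 (adjusted p = 0.335) in RPT against RP and 0.21 (adjusted p = 0.0772) in RPTi against RPT. Without RPT replicate 3, Ltv1 fell in RPT against RP (-0.24, adjusted p = 0.0285) and rose in RPTi against RPT (0.33, adjusted p = 0.004), which made it the only gene of the 49 called lower with thrombin in any setting.

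**Figure D2:**
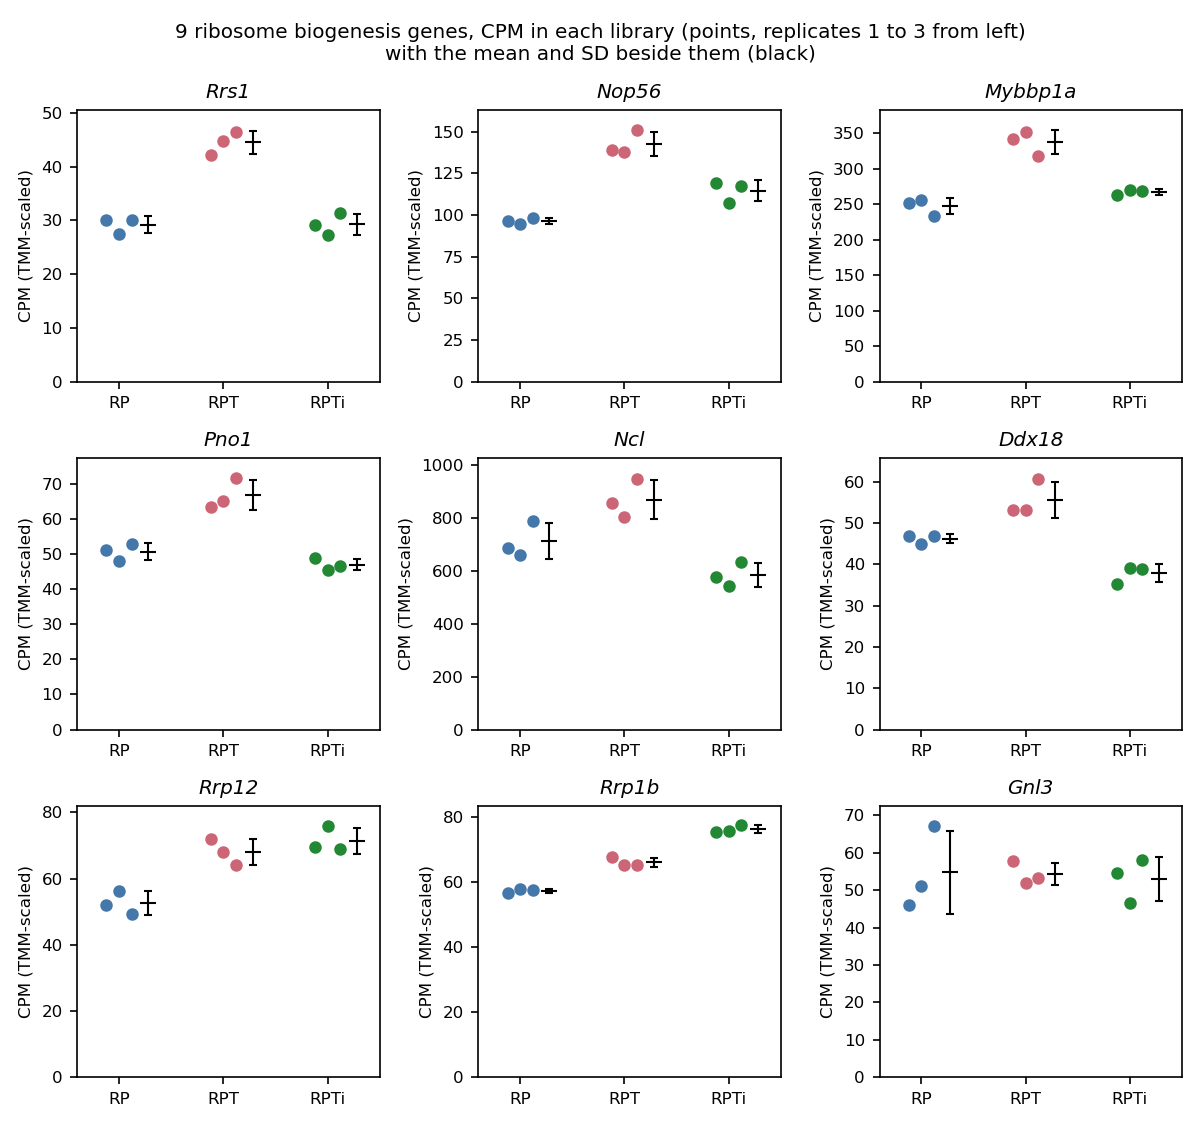
CPM in each library for 9 genes (points, replicates 1 to 3 from left in each group; black, mean with SD; the y axis starts at 0). In RPTi, Rrs1 and Pno1 overlap with RP, Ncl and Ddx18 lie below it, Nop56 and Mybbp1a lie between RP and RPT, Rrp12 overlaps with RPT, and Rrp1b lies above both; the Gnl3 groups all overlap.

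The 60S assembly factors held both the largest rise and the exceptions. Of 17 genes, 14 rose in RPT against RP (median 0.36), and 10 fell and 1 rose in RPTi against RPT (median -0.28). In RPTi against RP, 5 rose and 2 fell (median 0.07). The rises were 29.4% beside 11.9% of all tested genes, and the falls, at 11.8%, lay near the 12.3% of all tested genes. In RPTi against RP the rises numbered 3 without RP replicate 1, RP replicate 3, RPTi replicate 1 or RPTi replicate 2, and the falls 0 without RP replicate 1 or RPTi replicate 1 and 1 without RP replicate 3 or RPTi replicate 2. Rrs1, which helps bring the 5S RNP into the pre-60S particle, read 30.1, 27.4 and 30.1 CPM in RP, 42.2, 44.8 and 46.5 CPM in RPT, and 29.2, 27.4 and 31.3 CPM in RPTi. RPT stood clear of the overlapping RP and RPTi libraries. The change was 0.61 (SE 0.08, 1.52-fold, adjusted p = 7.37e-05) in RPT against RP, -0.60 (SE 0.08, adjusted p = 3.89e-05) in RPTi against RPT and 0.00 (adjusted p = 0.981) in RPTi against RP.

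Pes1 and its partners Bop1 and Wdr12, which form a complex needed to process the 60S rRNAs, all rose with thrombin. Pes1, the 60S gene with the highest FPKM, read 133, 138 and 132 CPM in RP, 157, 161 and 157 CPM in RPT, and 149, 145 and 141 CPM in RPTi. The RPTi libraries lay between the others without overlap. The change was 0.24 (SE 0.05, adjusted p = 0.00497) in RPT against RP and -0.13 (adjusted p = 0.0735) in RPTi against RPT.

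Rrp1b, a nucleolar protein of the 60S pathway, was the 1 gene that rose further with the inhibitor. It read 56.5, 57.8 and 57.5 CPM in RP, 67.7, 65.1 and 65.2 CPM in RPT, and 75.2, 75.7 and 77.5 CPM in RPTi. No groups overlapped. The changes were 0.20 (SE 0.06, adjusted p = 0.0168), 0.21 (SE 0.06, adjusted p = 0.0105) and 0.41 (SE 0.06, adjusted p = 0.000204) in RPT against RP, RPTi against RPT and RPTi against RP. The first was lost without RP replicate 1 or RPT replicate 1 (adjusted p 0.0683 to 0.0736), and the second was lost with library totals in place of TMM (adjusted p = 0.0724).

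The RNA helicases Ddx18 and Ddx21 were lowest in RPTi. Ddx18 read 46.8, 45.1 and 46.9 CPM in RP, 53.1, 53.1 and 60.7 CPM in RPT, and 35.3, 39.2 and 38.9 CPM in RPTi. Ddx21, which also acts in RNA polymerase I transcription, read 153, 139 and 160 CPM in RP, 174, 166 and 206 CPM in RPT, and 127, 116 and 129 CPM in RPTi. In both genes no groups overlapped. For Ddx18 the changes were 0.27 (SE 0.07, adjusted p = 0.0178), -0.56 (SE 0.08, adjusted p = 6.75e-05) and -0.29 (SE 0.08, adjusted p = 0.0134) in RPT against RP, RPTi against RPT and RPTi against RP. For Ddx21 they were 0.27 (SE 0.09, adjusted p = 0.0323), -0.55 (SE 0.09, adjusted p = 0.000227) and -0.28 (SE 0.09, adjusted p = 0.0315). In RPT against RP, the Ddx18 call was lost without RP replicate 1 or 2 (adjusted p 0.0518 to 0.0575), and the Ddx21 call without RP replicate 1 or 2, RPT replicate 3 or RPTi replicate 1 (adjusted p 0.0512 to 0.122). In RPTi against RP, the Ddx18 call was lost without RP replicate 1 or RPTi replicate 1 (adjusted p 0.0529 to 0.0675), and the Ddx21 call without RP replicate 1 or 3 or RPTi replicate 1 or 2 (adjusted p 0.0697 to 0.119).

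Gnl3 and Nop16 passed in no contrast. Gnl3, the GTPase nucleostemin, read 45.9, 51.0 and 67.1 CPM in RP, 57.7, 51.9 and 53.2 CPM in RPT, and 54.6, 46.5 and 58.0 CPM in RPTi. RP replicate 3 was the highest of the 9 libraries and RP replicate 1 the lowest, and the change in RPT against RP was -0.01 (SE 0.12, adjusted p = 0.961). Nop16 changed by 0.08 (adjusted p = 0.457) in RPT against RP and by 0.01 (adjusted p = 0.942) in RPTi against RPT.

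**Figure D3:**
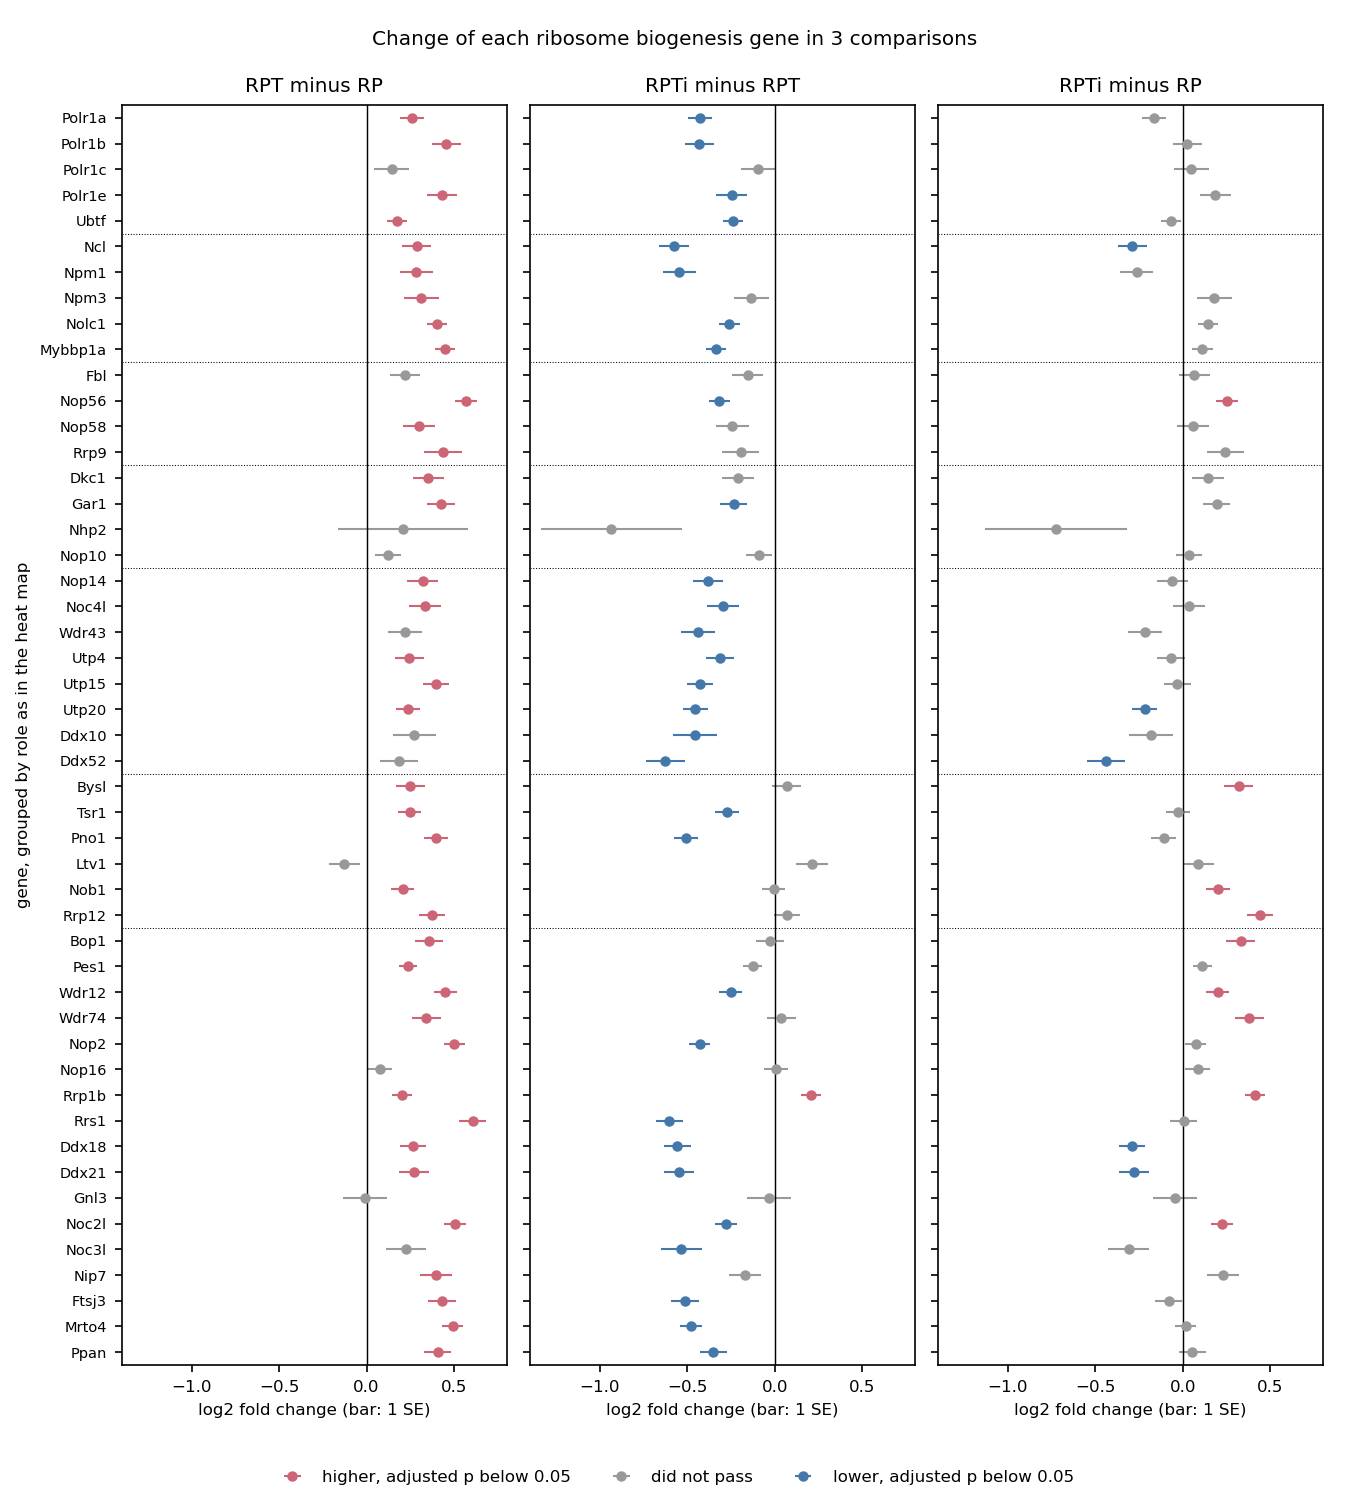
log2 fold change with 1 SE (x axis) of each of the 49 genes (rows, in the order of the heat map) in 3 panels, from left RPT minus RP, then RPTi minus RPT, then RPTi minus RP, red where the gene rose, blue where it fell and grey where it did not pass. The first panel has 38 red points, the second 30 blue and 1 red, and the third 9 red and 5 blue.

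The comparison of RPTi with RP was the least firm. The 9 genes that rose were Nop56, Bysl, Nob1, Rrp12, Bop1, Wdr12, Wdr74, Rrp1b and Noc2l, and the 5 that fell were Ncl, Utp20, Ddx52, Ddx18 and Ddx21. With library totals in place of TMM factors the split was 6 higher and 8 lower. The count of rises was 5 without RP replicate 3 or without RPTi replicate 1. The count of falls was 0 without RPTi replicate 1, 2 without RP replicate 1, RP replicate 3 or RPTi replicate 2, and 8 without RPT replicate 3.

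A wider list of other ribosome biogenesis genes was read beside the 49, and the difference between the lists was not tested. Of 113 tested genes outside the 49, 41 rose and 0 fell in RPT against RP (36.3% beside 13.6% of all genes, median 0.20). In RPTi against RPT, 58 fell and 1 rose (51.3% beside 21.1%, median -0.27). In RPTi against RP, 7 rose and 9 fell (median -0.06). Those shares, 6.19% and 7.96%, lay below the 11.9% and 12.3% of all genes. Without RP replicate 1 the rises in RPT numbered 25. In RPTi against RP, library totals in place of TMM factors gave 2 higher and 12 lower, the rises numbered 1 without RP replicate 3, RPTi replicate 1 or RPTi replicate 2, 3 without RP replicate 1 or RPT replicate 1 and 11 without RPT replicate 3, and the falls numbered 5 without RPTi replicate 1. By role, the rises in RPT numbered 3 of 10 other RNA polymerase I genes, 18 of 40 small subunit genes, 13 of 39 large subunit genes, 2 of 9 snoRNP assembly genes and 5 of 15 genes of the RNA exosome with Xrn2. The falls in RPTi against RPT numbered 4, 21, 21, 4 and 8 in the same order.

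Among single genes of that list, Cd3eap, a further RNA polymerase I subunit, averaged 36.1 ± 0.915 CPM in RP, 51.1 ± 0.818 CPM in RPT and 41.4 ± 2.29 CPM in RPTi, and rose by 0.50 (SE 0.07, adjusted p = 0.000105) in RPT against RP. Lyar, a nucleolar growth regulator, averaged 22.4 ± 0.916, 31.4 ± 2.41 and 16.9 ± 1.36 CPM, with -0.90 (SE 0.09, adjusted p = 3.3e-06) in RPTi against RPT. Ttf1, which ends RNA polymerase I transcription, changed by 0.07 (adjusted p = 0.704) in RPT against RP and fell by 0.60 (SE 0.12, adjusted p = 0.00129) in RPTi against RPT. Pak1ip1, Ddx27, Exosc2 and Ruvbl2 rose by 0.38 to 0.50 with thrombin, and all 4 fell in RPTi against RPT. The rule for named genes, given below, also took Wdr36, Ruvbl1 and Exosc3, whose values are not given here.

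Genes for the finished ribosome and for the other polymerases were read for comparison. Of 65 tested cytosolic ribosomal protein genes, 6 rose and 1 fell in RPT against RP (9.23% higher beside 13.6% of all genes, median 0.12), and 0 rose and 2 fell in RPTi against RPT (3.08% lower beside 21.1%, median -0.03). Of 10 RNA polymerase III subunits, 1 rose in RPT against RP (10%), and 1 rose and 2 fell in RPTi against RPT (20% lower). Of 7 RNA polymerase II subunits, 1 rose in RPT against RP (14.3%), and 1 rose and 2 fell in RPTi against RPT (28.6% lower). The shares of both polymerases lay near those of all genes. The difference between these lists and the 49 genes was not tested.

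**Figure D4:**
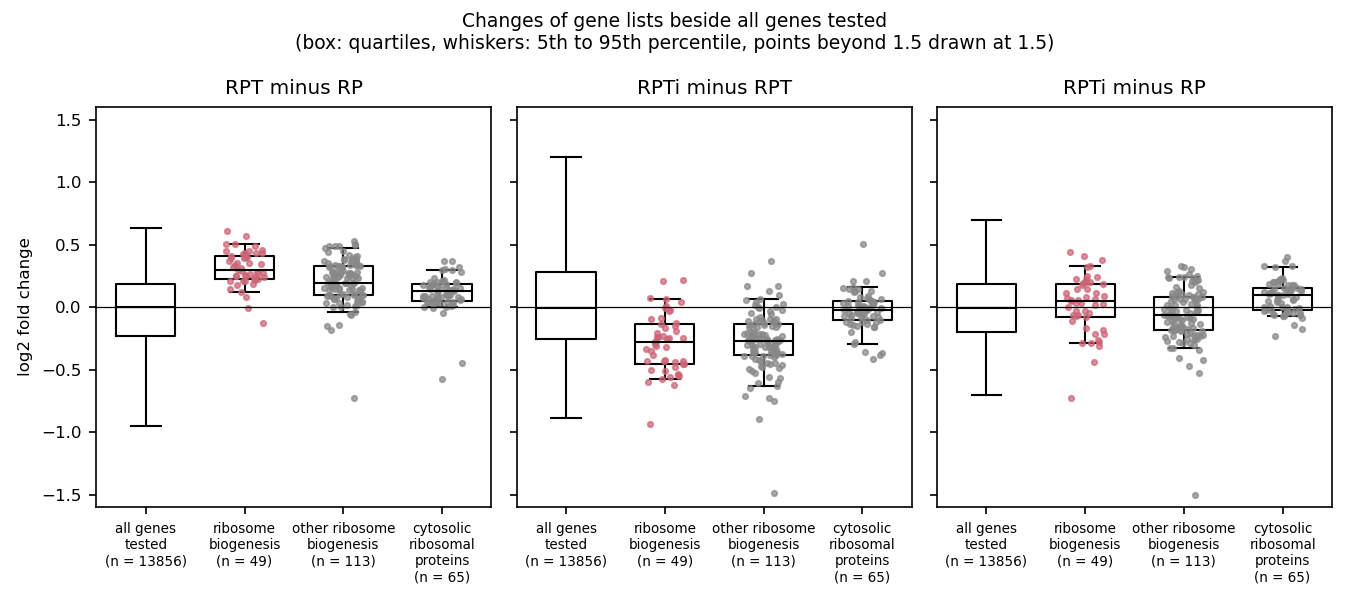
log2 fold change (y axis) in the 3 comparisons (panels) for all 13856 tested genes, the 49 genes, the 113 other ribosome biogenesis genes and the 65 cytosolic ribosomal protein genes (boxes, quartiles; whiskers, 5th to 95th percentile; points, genes). The medians of the 49 genes are 0.30, -0.28 and 0.05, and those of the ribosomal protein genes 0.12, -0.03 and 0.10.

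The Myc network was read because the genes are described as Myc targets. Myc read 54.7, 54.5 and 53.1 CPM in RP, 86.7, 88.9 and 85.5 CPM in RPT, and 57.3, 62.3 and 62.4 CPM in RPTi. RPT stood clear of both groups, and RPTi lay just above RP. Myc rose by 0.69 (SE 0.06, 1.61-fold, adjusted p = 3.98e-06) in RPT against RP and changed by -0.52 (SE 0.06, adjusted p = 1.89e-05) in RPTi against RPT, and RPTi against RP gave 0.17 (adjusted p = 0.0665).

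Mxd4 and Mnt, which pair with Max and repress E-box genes, moved the opposite way to Myc. Mxd4 read 139, 138 and 127 CPM in RP, 71.0, 76.1 and 64.4 CPM in RPT, and 142, 145 and 139 CPM in RPTi, so RPT stood below both other groups. It changed by -0.93 (SE 0.07, adjusted p = 9.86e-07) in RPT against RP and by 1.01 (SE 0.07, adjusted p = 1.59e-07) in RPTi against RPT. Mnt changed by -0.37 (SE 0.07, adjusted p = 0.00136) and 0.38 (SE 0.07, adjusted p = 0.000587). Mycl, at a mean of 1.02 CPM in RP, 0.377 CPM in RPT and 1.39 CPM in RPTi, changed by -1.46 (SE 0.34, adjusted p = 0.00684) and 1.89 (SE 0.34, adjusted p = 0.000669). Mlx rose in RPTi against RP alone (0.33, adjusted p = 0.00337). Max, the shared partner, Mycn, Mxd1, Mxi1, Mga and Zbtb17 passed in no contrast. Whether Myc bore on the 49 genes was not tested.

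Other gene groups moved with these changes, and their part in the result was not tested. Over all tested genes, 13.6% rose and 15.2% fell in RPT against RP, and 20.4% rose and 21.1% fell in RPTi against RPT. In RPTi against RP, 11.9% rose and 12.3% fell. These shares also stand beside the marker counts of the next paragraph. Of 18 DNA replication and mitosis genes, 13 rose in RPT against RP (median 0.35) and 18 fell in RPTi against RPT (median -0.56). Their summed level was 1963 to 2094 CPM in RP libraries, 2441 to 2660 CPM in RPT libraries and 1767 to 1802 CPM in RPTi libraries. All 10 chondrocyte markers fell with thrombin and rose from RPT to RPTi, with sums of 47697 to 48688, 29925 to 31732 and 73602 to 79898 CPM in RP, RPT and RPTi. Of 8 fibroblast markers, 2 rose and 3 fell in RPT against RP, 2 rose and 5 fell in RPTi against RPT, and 4 fell in RPTi against RP, with sums of 59822 to 62736, 62084 to 63816 and 51607 to 54708 CPM.

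Markers of other cell types were at lower levels, and their part in the result was not tested either. Of 6 smooth muscle and fat markers, 1 rose and 2 fell in RPT against RP, 3 rose and 1 fell in RPTi against RPT, and 4 rose and 1 fell in RPTi against RP. They summed to 38.3 to 43.4 CPM in RP libraries, 42.4 to 45.8 CPM in RPT libraries and 58.5 to 59.4 CPM in RPTi libraries. The 7 macrophage markers in the table, 3 of them tested, summed to 23.5 to 27.4 CPM in RP libraries, 44.5 to 46.3 CPM in RPT libraries and 24.6 to 28.8 CPM in RPTi libraries, mostly from Cd14, and Ptprc averaged 0.0562, 0.0294 and 0.0617 CPM. The 7 endothelial markers, 3 of them tested, summed to 3.42 to 4.31, 6.93 to 6.98 and 2.52 to 2.92 CPM, with Cdh5 and Emcn at 0 in RP. The blood cell markers in the table summed to at most 0.268 CPM in any library, and none was tested.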

How the data were processed

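Poly-A RNA-seq counts and FPKM were deposited as 1 table of 9 libraries (3 each of RP, RPT and RPTi, grouped by sample title). Per the submitters' processing notes, the tools included HISAT2, HTSeq 0.11.2 and DESeq2 1.26.0, with build Rnor_6.0. Not given in the sources used here are the annotation release, strand setting and filters, so reads of overlapping or antisense genes are uncertain. The authors' deposited counts are raw and whole. The authors' deposited FPKM equal count over length and library total, within a relative 2.54e-13.

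Counts were filtered with filterByExpr (minimum count 10, minimum total 15; 13856 of 18924 genes kept, the rest 0.0259% of counts), scaled by TMM (factors 0.9683 to 1.034) and fitted over all 9 libraries with glmQLFit and glmQLFTest (edgeR 4.0.16, R 4.3.3, prior count 0.125), two-sided, with Benjamini-Hochberg adjustment over all tested genes. Each SE is the absolute log2 fold change over the square root of F. The fit was tested on simulated data. FPKM served for levels between genes and for 1 alternative. Alternatives were other scalings and filters, DESeq2 1.42.0, limma 3.58.1, a replicate block, fewer groups, a stricter threshold and each library left out.

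The members, lists and the rule for named genes were chosen with earlier results of these data known. The rule took, per role, the gene with the smallest p and that with the highest FPKM, plus genes called against the majority or in no contrast, and, per other list, up to 2 called genes with the smallest p. Not every gene it took from the other lists is described above. Listed symbols without a row under that name, such as Heatr1 and the ribosomal protein symbol Rps7, were left out. So were 6 ribosomal protein symbols on several rows. Counts limit precision by sampling error only.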

Additional observations from a re-analysis of the deposited data

How the results depend on the processing

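The headline counts were recomputed under each alternative named above. At an adjusted p below 0.01, 21 genes rose in RPT against RP, 0 rose in RPTi against RPT, and 3 rose and 0 fell in RPTi against RP. The 1 rise in RPTi against RPT became 0 with library totals, 0 with limma on log2(FPKM + 1) and 2 with the replicate block. The 5 falls in RPTi against RP became 8 with library totals, 8 with only the 2 groups compared and 9 with the replicate block. With 1 library left out, the rises in RPT against RP ranged from 27 to 37 and the falls from 0 to 1 (1 without RPT replicate 3, Ltv1), the rises in RPTi against RPT from 1 to 2 and the falls from 27 to 31, and the rises in RPTi against RP from 5 to 11 and the falls from 0 to 8. Replicate numbers were not used as pairs, since no label ties them and not every same-numbered pair deviated together: over all tested genes the 9 same-numbered pairs of libraries had deviations correlated from -0.114 to 0.124, and the 18 other pairs from -0.161 to 0.143. Over 48 of these genes the same-numbered pairs ran from -0.30 to 0.73 and the others from -0.77 to 0.43. With the replicate block the counts were 42 rises in RPT against RP, 35 falls in RPTi against RPT, and 12 rises and 9 falls in RPTi against RP. For the 113 other ribosome biogenesis genes, recomputed after the data had been seen, an adjusted p below 0.01 gave 18 rises in RPT against RP, 37 falls in RPTi against RPT, and 1 rise and 5 falls in RPTi against RP, where the replicate block gave 15 and 17 and log2(FPKM + 1) gave 1 rise. The 0 falls in RPT against RP of the 49 genes held in every alternative with all 9 libraries or only the 2 groups compared. In those settings the median log2 fold change of all genes lay between -0.0791 and 0.0173, both with library totals. The median of the 49 genes in RPTi against RP was 0.05 in the main fit and -0.005 with library totals.

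Signs were compared between settings only for the ribosome biogenesis genes named by the rule above, which leaves out Rrp12, and for the Myc network. The remaining ribosome biogenesis genes were not read for sign, so the lists below do not cover them. Among the genes read, signs turned in genes that passed in neither setting. In RPTi against RP, library totals gave -0.019 for Nop10, -0.0498 for Rrs1, -0.0046 for Polr1c and -0.0385 for Mnt, limma on log2(FPKM + 1) gave -0.0176 for Nop10, -0.0477 for Rrs1 and -0.0368 for Mnt, and no filter gave -0.00287 for Rrs1. In RPTi against RPT, library totals gave -0.0639 and limma on log2(FPKM + 1) -0.0635 for Nop16, and the 2 groups alone gave 0.000195 for Nob1. In RPT against RP, Gnl3 was 0.0069 with library totals, 0.0107 with voom, 0.0226 with log2(FPKM + 1), 0.00252 with the 2 groups alone and 0.00339 with the replicate block. With 1 library left out, the ranges that spanned 0 were, in RPTi against RP, -0.0247 to 0.0807 for Nop10, -0.0502 to 0.0473 for Rrs1, -0.0445 to 0.113 for Polr1c, -0.0013 to 0.146 for Fbl, -0.156 to 0.131 for Gnl3, -0.12 to 0.0367 for Mxi1, -0.0326 to 0.0475 for Mnt, -0.0933 to 0.00742 for Mga, -0.0242 to 0.138 for Zbtb17, and in RPTi against RPT, -0.0168 to 0.00847 for Nob1, -0.0428 to 0.0644 for Nop16, -0.103 to 0.0522 for Gnl3, -0.115 to 0.0779 for Mxd1, -0.079 to 0.278 for Mga, -0.117 to 0.0279 for Zbtb17, and in RPT against RP, -0.024 to 0.45 for Nhp2, -0.123 to 0.164 for Gnl3, -0.063 to 0.0107 for Max, -0.326 to 0.0309 for Mga. The causes were not tested.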

Other observations

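Libraries numbered 2 and libraries numbered 3 departed from the mean of the other 2 libraries of their group, on log2(CPM + 1), in related patterns across genes, and libraries numbered 1 did not. Within a group the deviations of a gene cancel out, so the patterns for numbers 2 and 3 are not independent of each other. Over 48 genes (without Nhp2), which share libraries and depth, Pearson's r between the log2 deviations of same-numbered libraries was 0.72, 0.73 and 0.61 for number 2 (RP with RPT, RP with RPTi, RPT with RPTi), 0.54, 0.68 and 0.46 for number 3, and -0.30, -0.13 and -0.04 for number 1. RP replicate 3 was the highest RP library in 23 genes and the lowest in 23 of 49. Its largest departures were Gnl3 at 0.46 and Npm3 at -0.38 on the log2 scale. Over the same 48 genes, the deviations of RPT replicate 3 had r = -0.61 with the RPTi minus RP change, and those of RPT replicate 2 had r = 0.60, in a contrast that uses no RPT library. For the same reason these 2 values are not independent. The deviations of RP replicate 2 had r = 0.50 with the RPTi minus RPT change, and those of RP replicates 1 and 3 had -0.02 and -0.35. RPT replicate 1 had r = 0.03 with the RPTi minus RP change. RPTi replicates 1, 2 and 3 had r = 0.01, 0.15 and -0.16 with the RPT minus RP change.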
